A study of Mus musculus with 2 samples.

Results

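Mesothelial cells were taken from 2 single-cell RNA libraries of bleomycin-injured mouse lung by a rule on measured values. Barcodes entered with 500 or more genes and no more than 15% of their UMIs from mitochondrial genes (unique molecular identifiers, each standing for 1 captured RNA molecule). A barcode was called mesothelial if Msln, Upk3b and Lrrn4 together made up at least 10 of every 10000 UMIs, with the type II genes Slc34a2, Lamp3, Cxcl15 and Hc under 20 and the ciliated genes Tmem212, Ccdc153 and Dynlrb2 under 5 per 10000. The rule found 102 cells among 13841 kept barcodes, 35 of 6445 in the navitoclax library and 67 of 7396 in the vehicle library.

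The mesothelium is the single layer of flat epithelial cells that covers the lung surface and lines the pleural cavity. It comes from mesoderm, so it carries keratins and tight junction proteins together with genes of connective tissue, and it makes the lubricating fluid and glycoproteins that let the lung slide. In injured lung it is known as a source of matrix and of signals to the fibroblasts beneath it, and in the embryo Wt1-positive mesothelium is a source of lung mesenchyme in mice.

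Both groups were C57Bl6 mice injured on day 1 with bleomycin, which brings on fibrosis of the lung, so no uninjured lung was compared. The navitoclax group was treated from day 15 to day 20 with navitoclax (ABT-263), which blocks the anti-apoptotic proteins BCL-2, BCL-W and BCL-XL, and the vehicle group received vehicle. Lungs were taken on day 21, digested, and flow-sorted for epithelial and for stromal cells, which were mixed in equal parts before capture. The labels name no dose, number or age of mice, or sort marker. There was 1 library per group, so no difference was tested, no value has a replicate error, and all 95% intervals cover counting error only.

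The mesothelial cells held 334948 UMIs in the navitoclax library and 686837 in the vehicle library. The median cell had 8939 UMIs, 3077 genes and 6.23% mitochondrial UMIs in the navitoclax library, against 10014 UMIs, 3272 genes and 5.79% in the vehicle library. Levels below are UMIs per 1000000 (CPM) summed over the cells of a library, or UMIs per 10000 within 1 cell. Across all barcodes 20 sequences occurred in both libraries, and 1 mesothelial cell carried such a barcode.

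The genes that chose the cells were Msln (mesothelin, a surface protein; chr17:25748613-25754378, minus strand, mm10), Upk3b (a uroplakin; chr5:136038496-136046487, plus strand) and Lrrn4 (a leucine-rich repeat membrane protein; chr2:132868305-132880891, minus strand). Msln stood at 3932 CPM in the navitoclax library and 3686 CPM in the vehicle library, Upk3b at 2287 and 1855 CPM, and Lrrn4 at 827 and 793 CPM, in the same order. The cells just inside the threshold had 12.2 per 10000 (navitoclax) and 10.04 per 10000 (vehicle), and the highest barcodes just outside it had 9.05 and 8.69 per 10000. Of the selected cells, 19 navitoclax and 42 vehicle cells lay between 50 and 100 per 10000. A further 4 navitoclax and 5 vehicle barcodes passed 10 per 10000 but were over a type II or ciliated limit.

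The label was checked against 14 mesothelial markers that the rule did not use, and 13 of them were detected in both libraries. Their summed level was 79.6 per 10000 in navitoclax mesothelial cells and 77.8 per 10000 in vehicle mesothelial cells. It was 2.19 and 2.35 per 10000 in the fibroblast gate of the same libraries. That gate held cells with Col1a1, Col1a2, Col3a1 and Dcn together at 20 or more per 10000, under the same type II and ciliated limits. Cells called mesothelial were left out of it, so the rule fixed part of this contrast. In the type II gate the sum was 1.23 and 0.787 per 10000. In the ciliated gate it was 15.3 and 13.2 per 10000, with Krt19 at 576 and 503 CPM, and Anxa8 and Dmkn above their mesothelial levels. Wt1, the transcription factor that marks mesothelium (chr2:105126529-105173616, plus strand), had 325 CPM in navitoclax and 282 CPM in vehicle cells and was found in 30 of 35 and 53 of 67 cells. Wt1 had 0 UMIs in the fibroblast gate of both libraries, which allows up to 0.123 and 0.115 CPM. Calb2, the gene of calretinin, had 0 UMIs in mesothelial cells of both libraries, which allows up to 8.96 CPM in navitoclax and 4.37 CPM in vehicle cells. None of the 13 detected markers differed by 1.5-fold between navitoclax and vehicle cells.

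**Figure D1:**
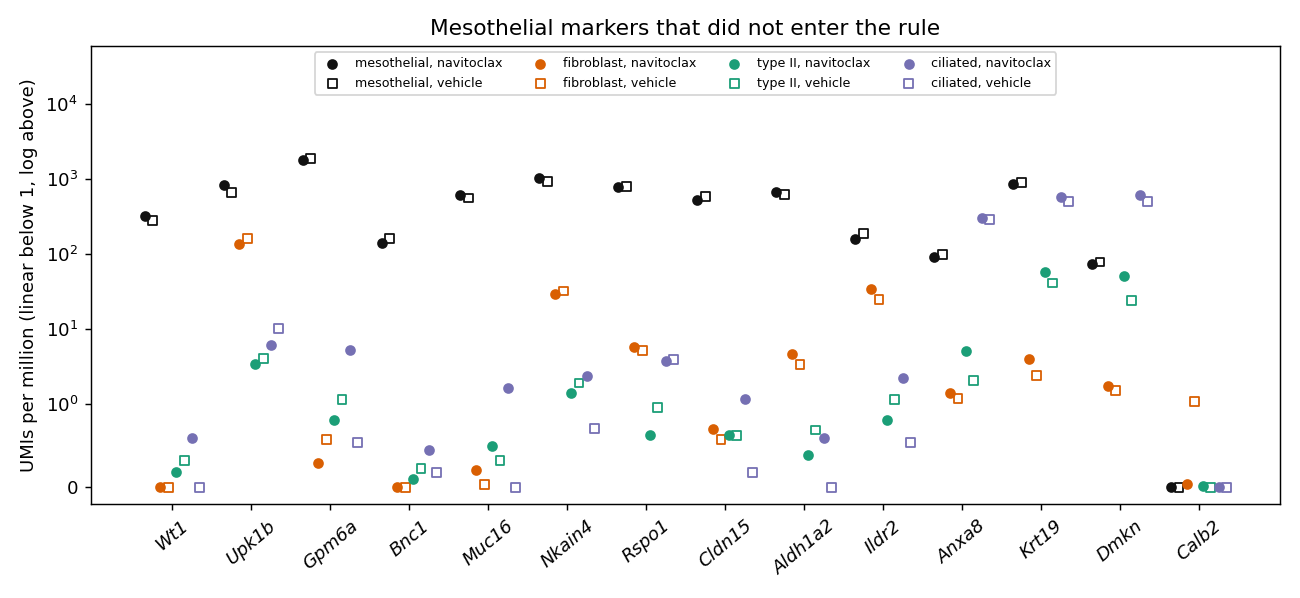
Summed level in CPM (linear below 1, log above) of the 14 mesothelial markers outside the rule, in mesothelial, fibroblast-gate, type II-gate and ciliated-gate cells; filled circles are navitoclax and open squares vehicle, 1 library each. Wt1 and Gpm6a are high in mesothelial cells of both libraries, Anxa8 and Dmkn are higher in ciliated-gate cells, and Calb2 is at 0 in mesothelial cells.

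Several genes that neither the rule nor the marker list was built on also set the mesothelial cells far above the other gates. The ratio of the mean level in mesothelial cells to the highest of the other 3 gates (5 CPM added to each) was 139 for Slurp1, 109 for Lgals2, 90.3 for Sfrp2, 61.0 for Cmah, 50.3 for Bst1 and 46.3 for Pkhd1l1. Slurp1 is a secreted Ly6-family protein, Lgals2 a galectin, Sfrp2 a secreted Wnt antagonist, and Cmah the enzyme that makes N-glycolylneuraminic acid. The water channel gene Aqp1 had 2541 CPM in navitoclax and 2595 CPM in vehicle mesothelial cells, against 45.3 and 63.6 CPM in the fibroblast gate. Kdr, a VEGF receptor usually listed with endothelium, had 424 CPM in navitoclax and 393 CPM in vehicle mesothelial cells, while the endothelial gene Cdh5 had 0 UMIs in both and Pecam1 had 1 and 2 UMIs. Because the cells were selected by expression, these ratios describe them and test nothing.

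Markers of smooth muscle and ciliated cells were at or near 0, while fibroblast and type II markers and 1 gene of the immune list were not. The 8 fibroblast markers summed to 86.5 per 10000 in navitoclax and 53.9 per 10000 in vehicle mesothelial cells, against 138 and 124 per 10000 in the fibroblast gate. Dcn (decorin), one of them, had 4786 CPM in navitoclax and 3194 CPM in vehicle mesothelial cells, above the 2736 and 2852 CPM of the fibroblast gate. Ptprc, the pan-leukocyte gene, had 0 UMIs in mesothelial cells of both libraries. The 7 immune genes summed to 4.45 per 10000 in navitoclax and 2.72 per 10000 in vehicle mesothelial cells. Lyz2, one of them, had 436 and 266 CPM, against 417 and 326 CPM in the fibroblast gate. In the type II gate Lyz2 had 36780 CPM in navitoclax and 32978 CPM in vehicle cells. The 7 smooth muscle and pericyte genes summed to 0.119 per 10000 in navitoclax and 0.116 per 10000 in vehicle cells, and the 5 ciliated genes to 0.179 and 0.175 per 10000. Sftpc, a type II surfactant gene, had a UMI in all 35 navitoclax and all 67 vehicle cells, at 2236 and 3040 CPM. Of the 2088 Sftpc UMIs in vehicle mesothelial cells, 908 came from 1 cell. In the fibroblast gate, which should lack it, Sftpc had a UMI in 2749 of 2750 navitoclax and 3254 of 3256 vehicle cells. Its level there was 2270 CPM and 1917 CPM, with median depths of 8291 and 7601 UMIs. A UMI of Sftpc is therefore not read as a mark of a type II cell, and its source was not tested. The 8 type II genes summed to 27.5 per 10000 in navitoclax and 36.5 per 10000 in vehicle mesothelial cells, against 29.0 and 24.6 per 10000 in the fibroblast gate; 1 vehicle mesothelial cell, described next, reached 772 per 10000.

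Single cells stood apart from the rest. In the vehicle library 1 cell had 772 type II and 297 type I UMIs per 10000 with 1 of the 14 independent markers, and another had 258 type I UMIs per 10000 with 3 of them. Of the 481 Ager UMIs (a type I gene) in vehicle cells, 279 came from 1 cell. The 7 type I genes accordingly summed to 22.0 per 10000 in vehicle cells, against 6.57 per 10000 in navitoclax cells, and no type I gene is read as a difference between the groups. In the navitoclax library 1 cell had 364 fibroblast-marker UMIs per 10000, and the doublet caller Scrublet marked 2 navitoclax and 6 vehicle mesothelial cells.

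**Figure D2:**
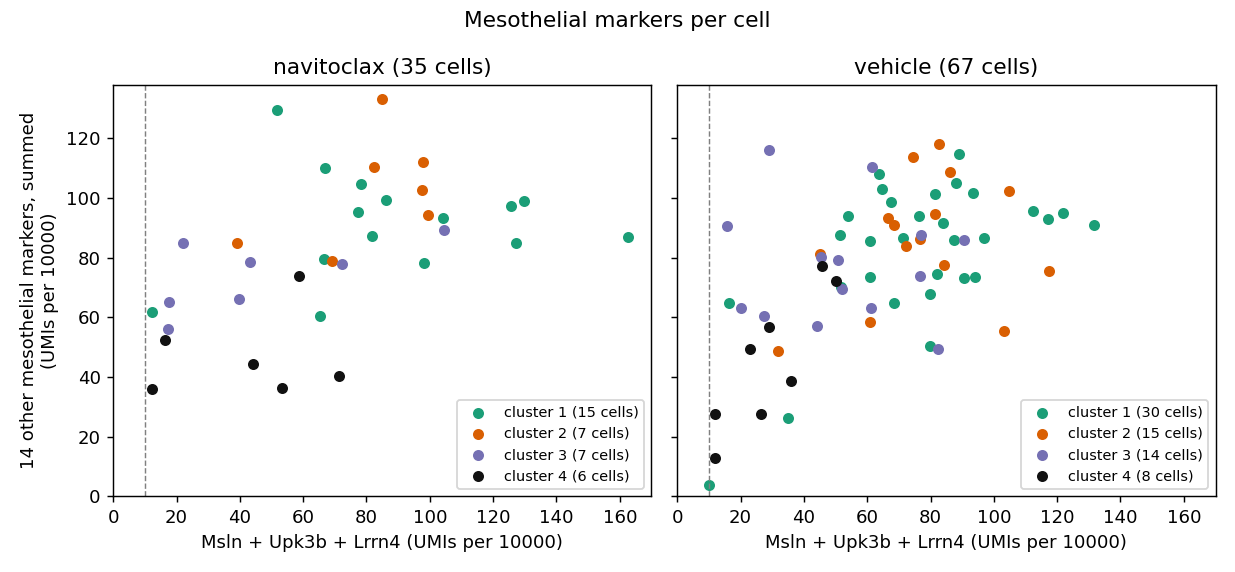
Each point is 1 mesothelial cell, navitoclax on the left and vehicle on the right; the x axis is the summed level of the 3 rule genes, the y axis that of the 14 markers outside the rule (both in UMIs per 10000), the dashed line is the threshold of 10 and colours are the clusters. Cells of cluster 4 lie mostly low on the y axis in both libraries, and 1 vehicle cell of cluster 1 sits near 0 on it. On the x axis cells of cluster 4 run from 12.2 to 71.3 in navitoclax and from 12.1 to 50.3 in vehicle.

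Clustering without the rule genes split the mesothelial cells into 4 clusters, which describe how they vary and were not tested against each other. Cluster 1 held 15 navitoclax and 30 vehicle cells and was led by Anxa8 and Myl7 once the genes contributed by 1 type II-marked cell (Sfta2, Ctsh, Sftpd, Napsa) are set aside. Cluster 2 held 7 navitoclax and 15 vehicle cells and was led by Slpi, a secreted protease inhibitor, at 9183 CPM against 1130 CPM in the other mesothelial cells. Hpgd, which degrades prostaglandin E, followed at 1308 against 216 CPM, and Slurp1 at 3402 against 1052 CPM. The metallothionein Mt1 and the keratin Krt7 also led cluster 2.

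Cluster 3 held 7 navitoclax and 14 vehicle cells and was led by genes that include Sfrp2, Csrp2 and the immediate early genes Egr1 and Fos. Egr1 was at 1718 CPM in cluster 3 against 533 CPM in the other mesothelial cells, Fos at 2559 against 926 CPM, Sfrp2 at 1849 against 400 CPM and Csrp2, a LIM-domain protein gene, at 700.3 against 71.7 CPM. Egr1 and Fos were also high in cluster 4, at 1207 and 2112 CPM. Wt1 was at 514 CPM in cluster 3, against 272, 225 and 210.3 CPM in clusters 1, 2 and 4. Krt7 stood at 282 CPM and Slurp1 at 116 CPM in cluster 3, the lowest of the 4 clusters for both. Some leading genes of cluster 3 rested on 1 cell, with 31 of 50 Meg3 UMIs and 120 of 231 Lgals1 UMIs in the top cell.

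Cluster 4, of 6 navitoclax and 8 vehicle cells, carried genes of lung fibroblasts that were close to absent from all other mesothelial cells. Inmt was at 2780 CPM in cluster 4 against 21.2 CPM in the other mesothelial cells, Gsn (gelsolin) at 9419 against 123 CPM, Mfap4 (a microfibril protein) at 1468 against 21.2 CPM and Fn1 (fibronectin) at 892 against 8.72 CPM. The PDGF receptor gene Pdgfra was at 439 against 1.25 CPM, and the integrin gene Itga8 at 361 against 0 CPM. The 10 leading genes of cluster 4 summed to between 119 and 292 per 10000 in its 6 navitoclax cells and between 77.8 and 390 per 10000 in its 8 vehicle cells. In the other 29 navitoclax cells they reached at most 9.73 per 10000 and in the other 59 vehicle cells at most 7.97 per 10000, so no cell lay between.

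Cells of cluster 4 still carried mesothelial genes, at lower levels. Msln was at 2030 CPM and Wt1 at 210.3 CPM, and the independent markers had a median of 42.4 per 10000, against 87.8, 92.2 and 78.0 in clusters 1, 2 and 3. Their median depth was 14156 UMIs, against 8685, 8282 and 9190 UMIs in clusters 1, 2 and 3, and their median doublet score 0.211 against 0.0364, 0.0364 and 0.0659. Scrublet marked 6 of these 14 cells, and 1 of the 14 was the vehicle cell with 258 type I UMIs per 10000. Whether these barcodes held 1 cell or more was not tested.

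**Figure D3:**
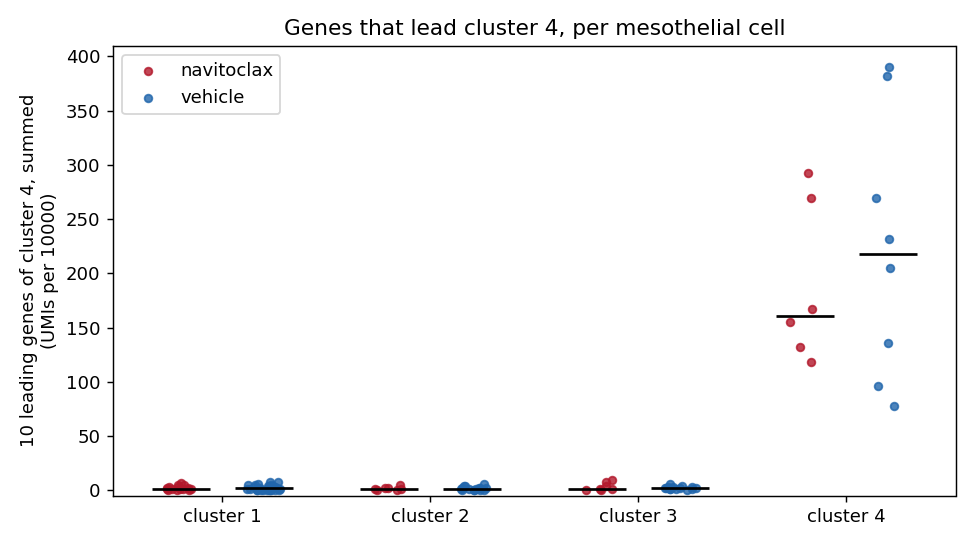
Summed level of the 10 genes that lead cluster 4 (UMIs per 10000), 1 point per mesothelial cell, by cluster, with navitoclax left of vehicle and bars at the medians. All 14 cells of cluster 4 lie above 77 and all other cells below 10; the cells were clustered on these genes, so the gap is a description.

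Mesothelial cells made up 0.543% of kept barcodes in the navitoclax library (exact Clopper-Pearson 95% interval 0.379 to 0.754%) and 0.906% in the vehicle library (0.703 to 1.15%). The difference was -0.363 percentage points (Newcombe interval -0.650 to -0.0775). Among barcodes in the fibroblast or mesothelial gate, the share was 1.26% (35 of 2785) in the navitoclax library and 2.02% (67 of 3323) in the vehicle library. The flow sort and the mixing of the sorted fractions set these shares as well as the tissue does, and with 1 library per group they cannot be told apart.

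Gene levels in mesothelial cells were compared over 3315 genes with at least 50 UMIs across both libraries, on the scale log2(CPM + 5), with a 1.5-fold difference as the call. The median over all genes was -0.01 on the log2 scale, with 1603 genes above 0 and 1712 below 0. In navitoclax cells 152 genes (4.59%) were at least 1.5-fold higher than in vehicle cells and 201 genes (6.06%) at least 1.5-fold lower. Counts for the lists below stand beside these shares of all 3315 genes. Of these genes, 3274 were also compared in the fibroblast gate, where 18 were higher and 11 lower, and 3289 in the type II gate, where 14 were higher and 5 lower; both gates hold many more UMIs. The genes named next were chosen for the size of their ratio, so their values describe and the percentages above are not read against them.

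The inducible cytosolic HSP70 genes were higher in navitoclax cells. Hspa1b had 137 UMIs (409 CPM) in navitoclax cells and 24 UMIs (34.9 CPM) in vehicle cells, a ratio of 11.7 (95% interval 7.55 to 18.9). It was found in 29 of 35 navitoclax cells and 16 of 67 vehicle cells. Hspa1a had 183 UMIs (546 CPM) in navitoclax cells and 57 UMIs (83.0 CPM) in vehicle cells, a ratio of 6.58 (4.87 to 9.03). Per cell, the 2 genes together ran from 0 through a median of 8.81 to 74.0 per 10000 in navitoclax cells and from 0 through a median of 0 to 9.25 per 10000 in vehicle cells, so the ranges overlapped while the medians were far apart.

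The Hspa1a difference was also seen at matched depth. With every cell thinned to 2000 UMIs, which left out 2 navitoclax cells and 1 vehicle cell, 66.7% of navitoclax cells and 7.58% of vehicle cells kept an Hspa1a UMI; unthinned, the shares were 91.4% and 31.3%. It was seen in the other gates too: Hspa1a was 9.79 times and Hspa1b 14.2 times as high in navitoclax as in vehicle cells of the fibroblast gate, and 27.3 and 29.9 times in the type II gate. In thinned ciliated-gate cells 16.6% of navitoclax and 1.67% of vehicle cells kept an Hspa1a UMI. The part of free RNA in the mesothelial values was not tested.

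The 250 bases upstream of the annotated starts of Hspa1b and Hspa1a are shown because these 2 genes headed the higher genes by interval bound; both are read on the minus strand of GRCm38.p6 (RefSeq), at chr17:34959239-34959488 and chr17:34972157-34972406, with matches to paired heat shock element units in capitals.
Hspa1b: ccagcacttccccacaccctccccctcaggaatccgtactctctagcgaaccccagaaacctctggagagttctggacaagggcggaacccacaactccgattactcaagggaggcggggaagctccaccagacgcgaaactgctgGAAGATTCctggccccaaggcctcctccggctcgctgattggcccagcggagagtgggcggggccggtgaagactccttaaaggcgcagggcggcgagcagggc
Hspa1a: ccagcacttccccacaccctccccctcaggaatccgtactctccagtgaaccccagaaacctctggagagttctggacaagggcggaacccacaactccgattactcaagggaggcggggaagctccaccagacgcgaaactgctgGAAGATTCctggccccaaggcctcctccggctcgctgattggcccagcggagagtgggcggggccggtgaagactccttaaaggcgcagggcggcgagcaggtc
The motifs searched were GAANNTTC and TTCNNGAA, each of which reads the same on both strands, with overlapping matches allowed. Each promoter held 1 match, starting 104 bases upstream of the annotated start, and 247 of the 250 bases were the same in both genes. At least 1 match was present in 12.8% of 32817 mouse promoters of this length, so a match is common and shows no binding. The transcripts of the 2 genes were 98.8% identical over 2249 aligned bases, but no 91-base window within the last 400 bases of Hspa1b occurred in Hspa1a. How the authors' counting treated reads shared by both genes was not analysed here.

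Other cytosolic chaperones differed less. Of 16 tested genes of the heat shock list, 4 were at least 1.5-fold higher in navitoclax cells (Hspa1b, Hspa1a, Dnajb1 and Hspb8) and none at least 1.5-fold lower. For Hspb8 the interval of the ratio, 0.977 to 2.77, included equality. The list's median was 0.29 on the log2 scale, beside -0.01 over all genes, and it was 0.38 in the fibroblast gate and 0.22 in the type II gate. Dnajb1, the J-domain partner of HSP70, had 25 UMIs in navitoclax and 25 in vehicle cells, a ratio of 2.05 (1.13 to 3.72) once scaled to totals, but 13 and 24 UMIs and a ratio of 1.21 (0.564 to 2.47) without cluster 4. Hsp90aa1 had 555 CPM in navitoclax and 411 CPM in vehicle cells (ratio 1.35, 1.12 to 1.63), and the constitutive Hspa8 had 902 and 802 CPM (ratio 1.12, 0.974 to 1.30).

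Genes of endoplasmic reticulum (ER) stress, the subject of the series, showed small differences in mesothelial cells. The IRE1 sensor splices Xbp1 mRNA, and spliced XBP1 turns on genes of protein entry into the ER. Of 13 tested genes of the IRE1-XBP1 list, which counts Xbp1 itself, 11 were above 0 on the log2 scale, beside 1603 of all 3315 genes. The list's median was 0.31. Beside 4.59% of all genes, 2 of the list were at least 1.5-fold higher in navitoclax cells. These were Ssr1, a translocon-associated subunit, and Ostc, an oligosaccharyltransferase subunit. Ssr1 had 152 CPM in navitoclax and 94.6 CPM in vehicle cells, and Ostc had 143 and 93.2 CPM. Without cluster 4 the Ssr1 ratio was 1.55 (0.955 to 2.49), an interval that included equality. The Ostc ratio was then 1.57 (1.007 to 2.42). Xbp1 itself had 245 CPM in navitoclax and 163 CPM in vehicle cells, a log2 difference of 0.57 just under the call, and without cluster 4 its ratio was 1.15. The counts do not separate spliced from unspliced Xbp1.

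The lists of the other ER stress branches had medians nearer to 0. Of 12 tested ER chaperone genes of the ATF6 branch, 10 were above 0 with a median of 0.11 and none reached 1.5-fold; Hspa5 (BiP) had 537 CPM in navitoclax and 489 CPM in vehicle cells. Of 8 tested genes of the PERK branch, 5 were above 0 with a median of 0.21, and Atf3 and Slc3a2 were at least 1.5-fold higher in navitoclax cells. Atf3 had 296 CPM in navitoclax and 163 CPM in vehicle cells, but with the rule genes required at 20 per 10000 its log2 difference was -0.60. Slc3a2, an amino acid transporter subunit, had 164 CPM in navitoclax and 100.5 CPM in vehicle cells, and without cluster 4 its ratio was 1.40 (0.869 to 2.22), short of the call.

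The ID genes, short helix-loop-helix proteins that block other transcription factors and respond to BMP signals, were lower in navitoclax cells. Id1 had 514 CPM in navitoclax and 1141 CPM in vehicle cells, a ratio of 0.450 (0.379 to 0.531). Id2 had 18 UMIs in 11 of 35 navitoclax cells and 140 UMIs in 42 of 67 vehicle cells, a ratio of 0.264 (0.152 to 0.432). Id3 had 761 CPM in navitoclax and 1264 CPM in vehicle cells, a ratio of 0.602 (0.522 to 0.693), and without the Scrublet doublets its log2 difference was -0.55, short of the call. Per cell the 3 genes together had a median of 11.1 per 10000 in navitoclax cells (0 to 61.7) and 24.4 per 10000 in vehicle cells (0 to 63.0), with wide overlap.

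The ratios of the ID genes lay nearer to 1 in the other gates, a difference that was not tested. In the ciliated gate they lay above 1, at 1.06 for Id1, 1.20 for Id2 and 1.03 for Id3. In the fibroblast gate the ratio of navitoclax to vehicle was 0.632 for Id1, 0.985 for Id2 and 0.757 for Id3, and in the type II gate 0.775, 0.793 and 0.739. Hes1, a repressor downstream of Notch, had 23 UMIs in navitoclax and 127 UMIs in vehicle mesothelial cells, a ratio of 0.371 (0.227 to 0.582), and its ratio was 0.476 in the fibroblast gate. Without cluster 4 the Hes1 ratio in mesothelial cells was 0.641 (0.363 to 1.08), an interval that included equality. Smad7, the inhibitory SMAD, had 16 UMIs in navitoclax and 61 UMIs in vehicle cells, a ratio of 0.538 (0.289 to 0.945).

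**Figure D4:**
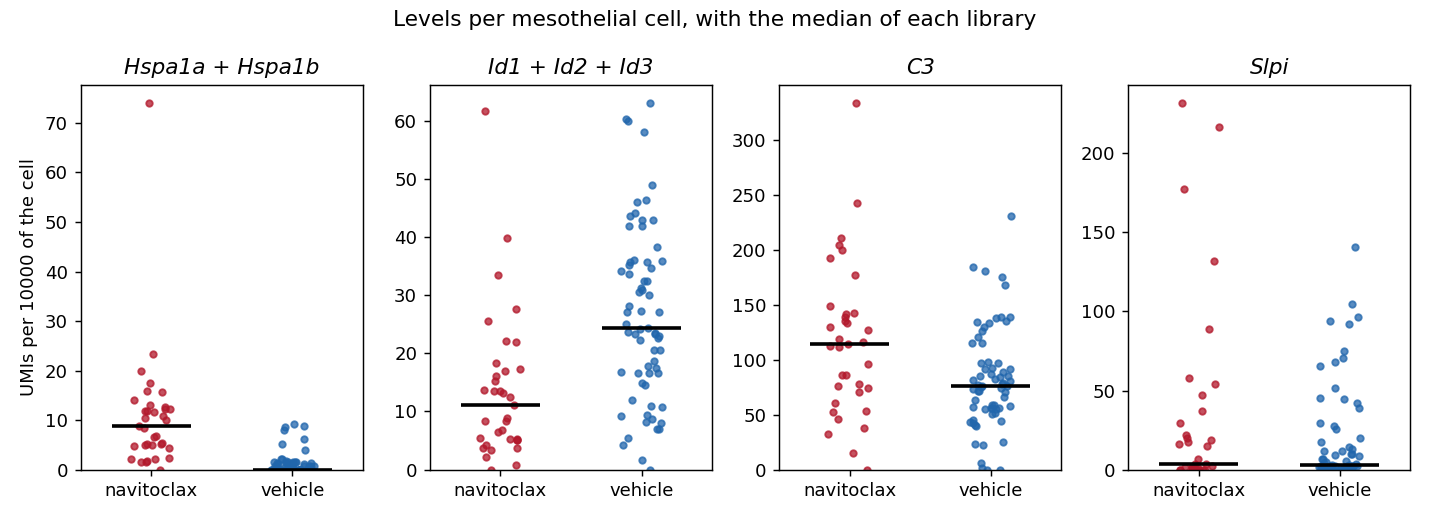
Levels per mesothelial cell in UMIs per 10000, navitoclax left of vehicle, with bars at the medians, for the 2 HSP70 genes summed, the 3 ID genes summed, C3 and Slpi. The HSP70 medians are 8.81 and 0, the ID medians 11.1 and 24.4, and the C3 medians 115 and 76.1 per 10000; for Slpi a few cells of either library reach above 100.

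Further genes at least 1.5-fold lower in navitoclax cells often had few UMIs. Prdx6, a peroxiredoxin, had 46 UMIs in navitoclax and 234 in vehicle cells (ratio 0.403, 0.287 to 0.555), but its log2 difference was -0.26 without the 2 type I-marked vehicle cells. Stard10, a lipid transfer protein gene, had 8 and 62 UMIs, and Haghl 9 and 63 UMIs, in navitoclax and vehicle cells in that order. Ndnf, a secreted neurotrophic factor gene, had 2 UMIs in 2 navitoclax cells and 49 UMIs in 8 vehicle cells, and its direction turned when the rule was loosened to 5 per 10000. Timp3, a metalloproteinase inhibitor, had a ratio of 0.551, but 0.794 without cluster 4 and a log2 difference of -0.47 without the type I-marked cells. Tgfb2, a TGF-beta ligand that mesothelial cells carried at 313 CPM in navitoclax and 482 CPM in vehicle cells, had a ratio of 0.650 (0.517 to 0.813) and was the only one of 10 tested growth factor and Wnt genes past 1.5-fold. Without cluster 4 its ratio was 0.692, and thinned to 2000 UMIs its log2 difference was -0.18, both short of the call.

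Some matrix genes were higher in navitoclax mesothelial cells, and fibroblast markers moved with them; their part in the result was not tested. Of 21 tested interstitial matrix genes, 17 were above 0 on the log2 scale, beside 1603 of all 3315 genes. The list's median was 0.30, against 0.15 in the fibroblast gate. Over the alternative settings tried, its median in mesothelial cells ran from -0.062 to 0.38. In navitoclax cells 5 of the list were at least 1.5-fold higher (Col1a1, Col1a2, Col3a1, Col5a2 and Col6a3), beside 4.59% of all genes. Col1a1 had 588 CPM in 23 of 35 navitoclax cells and 234 CPM in 31 of 67 vehicle cells, a ratio of 2.51 (2.03 to 3.11), and 2.33 without cluster 4. Col1a2 had a ratio of 1.82, and 1.36 without cluster 4, short of the call. Col6a3 had a ratio of 1.59. Without cluster 4 it had 5 UMIs in navitoclax and 11 in vehicle cells, a ratio of 1.01 (0.276 to 3.16). The 8 fibroblast markers, whose sums are given above, include 3 of these collagens, and the highest single cells had 364 per 10000 in the navitoclax and 227 per 10000 in the vehicle library. With cells of 100 or more fibroblast or type I UMIs per 10000 left out, the log2 difference was 0.38 for Col1a1, -0.13 for Col1a2 and -0.29 for Col6a3; the cells were removed on some of the same genes.

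Tcf21, Nrp1, Fn1 and Mfap4 differed through cluster 4 alone or nearly so. Tcf21, a transcription factor of lung fibroblasts, had 61 UMIs in navitoclax and 33 in vehicle cells (ratio 3.79), but 2 and 6 UMIs once cluster 4 was set aside. Fn1 had 116 UMIs in 6 navitoclax cells and 86 in 12 vehicle cells (ratio 2.77), but 1 and 6 UMIs without cluster 4. Nrp1, a semaphorin and VEGF co-receptor gene, had 1 UMI in each library without cluster 4. For Mfap4 the ratio was 2.07 with cluster 4 and 0.685 without it. These values therefore describe the 14 cells of cluster 4, of which 6 were navitoclax cells.

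**Figure D5:**
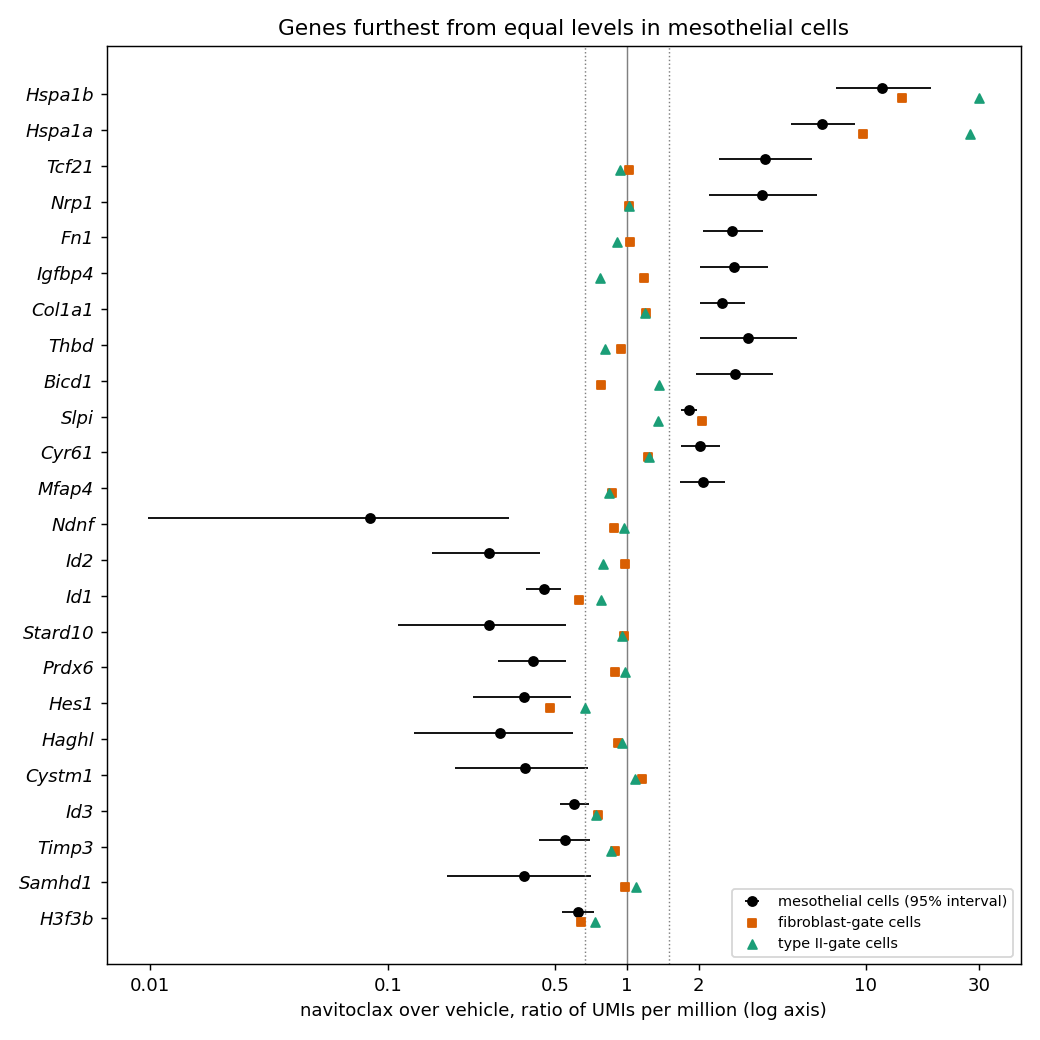
Ratio of CPM, navitoclax over vehicle (log axis), for the 12 higher and 12 lower genes furthest from equal in mesothelial cells (black, with 95% counting intervals), and for fibroblast-gate (orange squares) and type II-gate cells (green triangles); dotted lines mark 1.5-fold. Hspa1b and Hspa1a lie past 1.5-fold in all 3, while Tcf21, Nrp1, Fn1 and Mfap4 pass it in mesothelial cells, through cluster 4, and lie near 1 in the other gates.

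Other genes were also at least 1.5-fold higher in navitoclax cells with cluster 4 set aside. Thbd, the gene of thrombomodulin, an anticoagulant surface protein, had 50 UMIs in 19 navitoclax cells and 32 UMIs in 24 vehicle cells, a ratio of 3.20 (2.02 to 5.16), and 2.71 without cluster 4. With fibroblast- or type I-marked cells left out its log2 difference was 0.84. Has1, a hyaluronan synthase, had 40 and 36 UMIs in navitoclax and vehicle cells, a ratio of 2.28 (1.42 to 3.68), and 2.47 without cluster 4. Cyr61, a matricellular target of YAP, had 666 CPM in navitoclax and 328 CPM in vehicle cells, a ratio of 2.03 (1.68 to 2.46). Bicd1, a dynein adaptor, had a ratio of 2.82 (1.96 to 4.10). Slpi had 3872 CPM in navitoclax and 2133 CPM in vehicle cells (ratio 1.82), with per-cell medians of 3.38 and 2.95 per 10000 and highest cells of 232 and 140 per 10000, so a few cells carried it in both. Without the top cell of each library its log2 difference was 0.55, short of the call. Igfbp4, an IGF-binding protein gene, had 92 UMIs in navitoclax and 67 in vehicle cells (ratio 2.82), and 1.94 without cluster 4, but its log2 difference was -0.46 with the rule genes required at 20 per 10000.

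Complement genes were mostly above equality without passing 1.5-fold. Of 10 tested complement genes, 9 were above 0, beside 1603 of all 3315 genes. The list's median was 0.25, against 0.08 in the fibroblast gate, -0.04 in the type II gate and 0.43 in the ciliated gate. C3, the central component, had 11264 CPM in navitoclax and 7933 CPM in vehicle mesothelial cells, a ratio of 1.42 (1.36 to 1.48), against 1.78 in the ciliated gate, with cells running from 0 through a median of 115 to 333 per 10000 in navitoclax and from 0 through 76.1 to 231 per 10000 in vehicle. Cfb, factor B of the alternative pathway, had 815 CPM in navitoclax and 607 CPM in vehicle cells (ratio 1.34, 1.15 to 1.57). The serine protease gene C1s1 had 782 and 588 CPM (ratio 1.33, 1.13 to 1.56), while the regulator Clu was on the other side, at -0.21 on the log2 scale.

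Keratin and junction genes stayed within 1.5-fold. Of 10 tested genes of that list none passed it in either direction, with a median of -0.08 on the log2 scale. Krt19 had 872 CPM in navitoclax and 903 CPM in vehicle cells, and Krt18 had 278 and 307 CPM. Ezr, which links the membrane to actin in microvilli, had 1442 CPM in navitoclax and 1667 CPM in vehicle cells (ratio 0.865, 0.776 to 0.963). Of 5 tested genes listed for mesothelial-to-mesenchymal change, Fn1 and Zeb2 were higher and Mmp2 lower, and Zeb2 and Mmp2 were found in 7 and 4 navitoclax cells and in 9 and 11 vehicle cells. The interval of the Zeb2 ratio, 0.975 to 3.15, included equality. Without cluster 4, Mmp2 had 1 UMI in navitoclax and 4 in vehicle cells, and Zeb2 had 4 and 1. Acta2, smooth muscle actin, had 1 UMI in navitoclax and 2 UMIs in vehicle cells.

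The genes of the proteins that navitoclax binds were sparse. Bcl2l1, which encodes BCL-XL, had 23 UMIs in 16 of 35 navitoclax cells and 82 UMIs in 43 of 67 vehicle cells, a ratio of 0.575 (0.346 to 0.923). Bcl2 had 11 UMIs in navitoclax and 16 in vehicle cells, and Bcl2l2 (BCL-W) 9 and 14 UMIs, both under the minimum of 50. Mcl1, a relative that navitoclax does not bind well, had 43 and 105 UMIs, a ratio of 0.840 (0.575 to 1.21). In the fibroblast gate the Bcl2l1 ratio was 0.999. Of 8 tested p53 target genes, Trp53inp1 was at least 1.5-fold lower and none at least 1.5-fold higher, with a median of -0.14.

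The remaining lists divided without a common direction. Immediate early genes had a median of -0.12 over 21 tested genes, with 6 above 0, Klf10 and Ier2 at least 1.5-fold lower and Atf3 higher. The TGF-beta response list had a median of -0.45 over 11 genes, with 4 at least 1.5-fold higher (Cyr61, Ctgf, Ltbp1 and Thbs1) and 4 lower (Id1, Id2, Id3 and Smad7). Thbs1 had 40 of its 44 navitoclax UMIs in 1 cell, while Ltbp1, a latent TGF-beta binding protein gene, had 81 UMIs in navitoclax and 94 in vehicle cells (ratio 1.77). Of 9 interferon-stimulated genes tested, Bst2 was lower, with 27 UMIs in navitoclax and 95 in vehicle cells (ratio 0.583, 0.365 to 0.902). Without cluster 4 the Bst2 ratio was 0.590 (0.330 to 1.003), an interval that included equality. The metallothionein Mt1 had 388 CPM in navitoclax and 218 CPM in vehicle cells (ratio 1.78, 1.39 to 2.26). Among the cells' own leading genes, Pkhd1l1 was higher (337 and 191 CPM in navitoclax and vehicle cells, ratio 1.77), and Slurp1 was 1135 and 1695 CPM, a ratio of 0.669.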

How the data were processed

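Single-cell libraries were made with a Chromium 3' kit, per the labels' protocols, and the deposited matrices hold UMI counts per gene and barcode made by the authors with Cell Ranger 4.0.0, per the file headers; the build mm10 is per the submitters' processing notes. All 27998 genes and 8064 (navitoclax) and 8784 (vehicle) deposited barcodes were read. The members and lists were chosen with earlier results of these data known. UMIs were summed over mesothelial cells per library and scaled to CPM, with 5 CPM added for log2 ratios and a minimum of 50 UMIs over both libraries; intervals are exact Poisson or conditional binomial at 95%. Named genes were the rule genes and markers; the 12 highest and 12 lowest ratios by the interval bound nearest 1, at 50 CPM or more in the higher library (leaving out unnamed and sex-linked genes, those of ribosomes, mitochondria, immunoglobulins and haemoglobins, genes with most UMIs in 1 cell and genes under 10% of another gate's level); up to 3 genes a list; Bcl2, Bcl2l1, Bcl2l2 and Mcl1; and the 20 genes most above the other gates at 100 CPM or more. Other genes were named after their values were seen, and 1 gene is not reported here. Scrublet (expected rate 6%) marked doublets, which were kept. Clusters used 1500 variable genes, 20 components, 10 neighbours and Leiden resolution 0.5 (scanpy 1.11.5, leidenalg 0.10.2); thinning was to 2000 UMIs. Intervals were tried only on simulated Poisson counts without variation between cells, the setting they assume. Their coverage for sums in which single cells hold many of the UMIs was not tested. Gene positions are from GENCODE M21.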

Additional observations from a re-analysis of the deposited data

Results flagged for a closer look

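For 11 named genes past 1.5-fold in mesothelial cells, the navitoclax over vehicle ratio lay on the other side of 1 in the fibroblast gate, with both 95% counting intervals clear of 1. The difference between the cell types was not tested, since each group had 1 library. Of the 3274 genes compared in both, 1646 lay above 0 and 1628 below 0 on the log2 scale in the fibroblast gate. The share of all called genes on opposite sides was not counted, so 11 is not read as many or few. Higher in mesothelial cells were Thbd (3.20 in mesothelial cells, 0.947 in the fibroblast gate), Mfap4 (2.07 and 0.867, through cluster 4), Slc3a2 (1.63 and 0.912, but 1.40 in mesothelial cells without cluster 4), Cdkn1c (2.07 and 0.755, with 48 of its 89 navitoclax UMIs in 1 cell) and Mt1 (1.78 and 0.884). Lower in mesothelial cells were Tgfb2 (0.650 and 1.11), Trp53inp1 (0.502 and 1.09), Bst2 (0.583 and 1.26) and Cd74 (0.368 and 1.73). Also lower were Mmp2 (0.460 and 1.07, with 1 navitoclax and 4 vehicle UMIs outside cluster 4) and Mmp3 (0.404 and 1.29, with 62 of its 66 vehicle UMIs in 1 cell). With cluster 4 set aside, the Tgfb2 ratio in mesothelial cells was 0.692, short of the call. The intervals of Trp53inp1 (ratio 0.598, 0.277 to 1.18) and Bst2 (ratio 0.590, 0.330 to 1.003) then included equality.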

How the results depend on the processing

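The depth of 102 cells limits the gene counts. The counts of genes at least 1.5-fold higher (152) and genes at least 1.5-fold lower (201) became 91 and 128 with 20 CPM added, 538 and 667 at a minimum of 20 UMIs, 22 and 15 at 200 UMIs, 2010 and 2090 at 1 UMI, and 29 and 37 after thinning to 2000 UMIs; weighting cells equally gave 233 higher and 277 lower genes, and scaling by the median ratio 160 and 188. The difference in share kept its sign under every alternative tried and was -0.760 points over the fibroblast or mesothelial gate. The independent markers' summed log2 difference, 0.03, was -0.061 with the rule at 5 per 10000, -0.043 with 2 of 3 rule genes required, -0.043 without type I-marked cells and 0.12 in clusters 1 and 2. Without cluster 4 the ratio turned, on few UMIs, for Mfap4 (0.685), Tcf21 (0.743), Fn1 (0.371), Thbs1 (0.405), Mmp3 (4.46), Serpine2 (2.97) and Col4a3 (1.04). Some ratios near equality also crossed 1, among them Gpm6a (from 0.965 to 1.006) and Krt19 (from 0.966 to 1.02). At the minimum of 50 UMIs, reversed log2 differences were Ndnf (0.29) with the rule at 5, Igfbp4 (-0.46) and Atf3 (-0.60) with the rule at 20, Col1a2 (-0.13) and Col6a3 (-0.29) without type I- or fibroblast-marked cells, and Mmp3 (0.031) and Thbs1 (-0.74) without the top cell in each library. List medians moved for IGF genes (0.0085 with the rule at 20, 0.0026 with equal weights, 0 thinned), immediate early genes (-0.60 with the rule at 20), senescence genes (0.34 without doublets, 0.31 with no minimum) and NRF2 genes (-0.41 thinned). Medians of further lists also fell on both sides of 0 over the alternatives. Among them, the TGF-beta response median ran from -0.86 to 0.006 and the interstitial matrix median from -0.062 to 0.38. The PERK branch median ran from -0.027 to 0.36 and the p53 target median from -0.48 to 0.12. The cause was not tested. The alternatives on type I- or fibroblast-marked cells and on clusters were chosen after seeing the data. No paired analysis was possible because each group had 1 library.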
